A study of Mus musculus with 12 samples.

Results

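The comparison set the CTG libraries against the STG libraries of the mouse trigeminal ganglion, the collection of sensory neuron cell bodies that serves the face and jaw. The members were chosen by the titles in the labels, 6 of the 12 libraries in the series, with 3 in each group. All animals were C57BL/6 mice, an inbred strain, described as wild type and 8 weeks old, and the series concerns chronic inflammatory pain of the temporomandibular joint. The other 6 libraries, SSp5C and CSp5C with 3 each, came from Sp5C, the spinal trigeminal nucleus caudalis in which these neurons end in the brainstem, and were used only where stated. The labels do not say what C and S stand for. Complete Freund's adjuvant, an irritant injected to inflame the joint, and saline share these initials and are a possible reading, but neither the labels nor the series text states it. The letters were therefore kept, no agent is assigned to either group, and each difference is given as CTG minus STG. Whether each library came from its own animals is not in the labels either, and the p-values rest on a spread between samples that may be technical.

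The trigeminal ganglion holds nociceptors that detect noxious heat, cold, pressure and inflammatory mediators, together with mechanoreceptors, the satellite glia that wrap each cell body and the Schwann cells that ensheath the axons. Joint inflammation is known to sensitise nociceptors through ion channels, peptides such as calcitonin gene-related peptide, and cytokines from resident and invading immune cells. Stress hormones of the adrenal gland act on the same cells through the glucocorticoid receptor, a transcription factor with a well described set of target genes.

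Values were FPKM, which divide the fragments of a transcript by its length and by the size of the library. Total depth, recovered from the spacing of low FPKM values, was about 24900000 to 26700000 fragments in the STG libraries and about 27000000 to 31800000 fragments in the CTG libraries. Pearson correlations of log2 values across the genes tested were 0.971 to 0.983 within a group and 0.962 to 0.987 between groups, so the letter did not part the libraries. Genes are not independent replicates, and these correlations are a description. CTG replicate 1 stood apart, with 78 genes more than 2-fold above all 5 other libraries, led by S100a8 and S100a9, and so did STG replicate 1, with 24 such genes, led by the pituitary hormone genes Gh and Prl. In each of the other 4 libraries the number was 1 to 6.

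Markers of the labelled tissue were present in every library. The 11 peptidergic nociceptor markers summed to 545 to 690 FPKM, the 12 satellite glia markers to 1568 to 2005 FPKM and the 12 myelinating Schwann cell markers to 4871 to 6383 FPKM. Central neuron markers summed to 0.740 to 2.02 FPKM and none of the 10 reached the level needed for testing. Markers of central glia (oligodendrocytes and astrocytes) were present, and 9 of 11 reached that level. They summed to 92.1, 84.8 and 98.8 FPKM in STG replicates 1 to 3 and 126, 78.0 and 51.6 FPKM in CTG replicates 1 to 3. Neutrophil and bone marrow markers differed far more between libraries, at 37.2, 5.35 and 25.7 FPKM in STG replicates 1 to 3 and 960, 16.2 and 319 FPKM in CTG replicates 1 to 3. Pituitary markers reached 2878 FPKM in STG replicate 1 and 2.61 to 52.0 FPKM elsewhere. In bulk tissue, more cells of a type and more RNA per cell cannot be told apart.

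**Figure D1:**
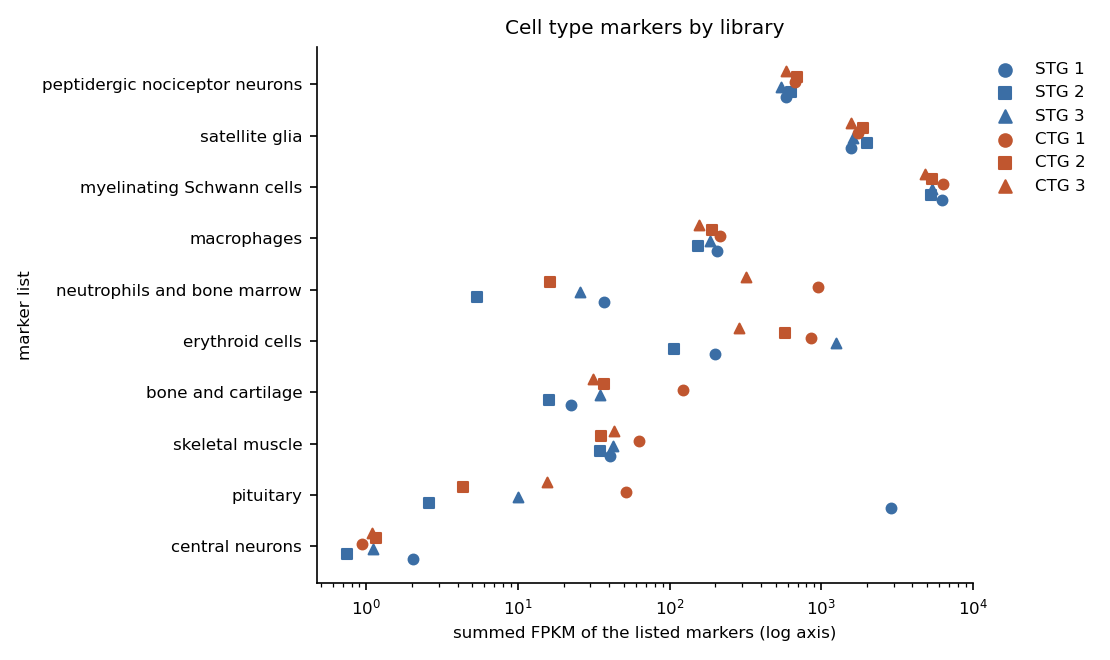
Summed FPKM of the markers of 10 cell types or tissues (log axis) in each of the 6 ganglion libraries; blue points are STG, orange points are CTG, and circles, squares and triangles are replicates 1, 2 and 3. Neuronal, glial and Schwann cell sums lie close together, while neutrophil sums run from 5.35 to 960 and the pituitary sum reaches 2878 in STG replicate 1.

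At the level of genes, 1 of 12906 genes differed between CTG and STG at an adjusted p under 0.05 (0.00775% of genes; limma on log2(FPKM + 1), Benjamini-Hochberg). The unadjusted p was under 0.05 for 606 genes. The median log2 difference was -0.01, the middle 50% of genes lay between -0.08 and 0.06, and 76 genes differed by at least 1. The CTG and STG libraries did not overlap for 577 genes higher in CTG (4.47%) and 816 genes lower in CTG (6.32%). With 3 libraries against 3, an exact permutation test of a single gene cannot go below p = 0.1.

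The gene that passed was Epg5 (ENSMUSG00000039840, GRCm38 chromosome 18, 77938465 to 78035013, plus strand), which encodes a tether that lets autophagosomes fuse with late endosomes and lysosomes. Its value was an exact 0 in each of the 3 libraries labelled STG. In CTG it was 3.27, 3.59 and 3.71 FPKM, from an estimated 852 to 1138 fragments (limma adjusted p = 0.00293). In Sp5C it was listed at 0 in 4 libraries and at 4.32 and 4.31 FPKM in CSp5C replicates 1 and 3. Whether these exact 0 values were failed estimates was not tested. Ndufs3, a subunit of mitochondrial complex I, had the value 0 in 2 libraries (STG replicate 2 and CTG replicate 3) and 12.7 to 19.2 FPKM in the other 4. No other gene of those tested was listed at 0 in one whole group and above 1 FPKM in every library of the other. The adjusted p of Epg5 was 0.0773 without CTG replicate 2, 0.0525 without CTG replicate 3, and 0.594 when the spread was taken from all 12 libraries. Of the other 42 autophagy genes listed, none passed, and the median of the 43 was 0.03 against -0.01 for all genes. Atg101, a subunit of the kinase complex that starts autophagy, stood at 11.5, 11.7 and 10.7 FPKM in STG and 14.3, 12.3 and 12.5 in CTG.

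Among the named genes higher in CTG, the next by p were Mt1, Slc38a10, Mt2 and Slc6a8, and none of them passed. Mt1 and Mt2 encode metallothioneins, small cysteine-rich proteins that bind zinc and copper. Mt1 stood at 37.0, 36.7 and 38.5 FPKM in STG and 60.1, 64.9 and 69.9 in CTG, a log2 difference of 0.78 ± 0.07 (SE; limma adjusted p = 0.0813). Mt2 stood at 33.4, 32.1 and 28.1 FPKM in STG and 54.5, 73.9 and 64.7 in CTG, a difference of 1.01 ± 0.12 (adjusted p = 0.180). Every CTG library was above every STG library for both. Mt1 passed without CTG replicate 1 (adjusted p = 0.0191) and with quantile normalization (0.0306), and Mt2 passed without CTG replicate 1 (0.0456). With other single libraries left out, the limma adjusted p reached 0.411 for Mt1 and 0.543 for Mt2. By limma-voom on estimated fragments it was 0.107 for Mt1 and 0.233 for Mt2.

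Both transporters of that set were also separate between the groups, as the rule for naming genes required. Slc38a10, an amino acid transporter, stood at 17.8, 17.7 and 16.8 FPKM in STG and 23.8, 24 and 23.8 in CTG (log2 difference 0.43 ± 0.05, limma adjusted p = 0.180). Slc6a8, which imports creatine, stood at 14.3, 15.2 and 15.9 FPKM in STG and 21.8, 21.9 and 20.8 in CTG (0.48 ± 0.06, adjusted p = 0.207, and 0.0543 by limma-voom on estimated fragments). With each library left out in turn, the limma adjusted p of Slc6a8 was 0.236 to 0.572. Slc1a5, a glutamine transporter, stood at 11.1, 8.67 and 10.9 FPKM in STG and 13.7, 13.7 and 12.6 in CTG. Of the 28 amino acid and creatine transporter genes tested, 18 had a higher and 10 a lower mean in CTG, none passed, and the median was 0.02. These 3 were the members whose CTG libraries were all above STG, where the share over all genes was 4.47%. The list was written with earlier results of these data known and holds Slc38a10 and Slc6a8, so this count is only a description.

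The other 10 higher genes named by the rule had limma adjusted p of 0.871 to 0.960. They were Fstl3, Rps27, Ms4a4a, Ibsp, Cda, Crip1, Fuca2, Tifa, Rpl7a-ps5 and Cdkn1a, with log2 differences of 0.29 to 1.02. Rps27, a ribosomal protein gene, had the highest of these differences, at 63.8, 97.1 and 75.3 FPKM in STG and 197, 130 and 155 in CTG. Ribosomal protein genes have many near-identical processed copies, and Rpl7a-ps5 is one, so reads may be split between copies and these values are uncertain. Ibsp encodes bone sialoprotein and stood at 2.04, 2.65 and 2.27 FPKM in STG and 6.13, 3.55 and 5.11 in CTG.

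On the lower side, no gene passed. Prokr2, a receptor for the prokineticins, secreted peptides known to sensitise nociceptors, stood at 4.30, 4.26 and 5.02 FPKM in STG and 2.05, 2.08 and 1.94 in CTG (log2 difference -0.87 ± 0.09, limma adjusted p = 0.110, and 0.0543 by limma-voom). With each library left out in turn, the limma adjusted p of Prokr2 was 0.144 to 0.543. Ap5s1, a subunit of the adaptor complex AP-5 of late endosomes, stood at 5.10, 5.43 and 5.58 FPKM in STG and 2.93, 2.56 and 2.64 in CTG (-0.78 ± 0.08, adjusted p = 0.110). For both gene totals every CTG library lay below every STG library by a wide margin. Of the Prokr2 transcripts, only Prokr2-202 had a higher mean in CTG. It stood at 0.107, 0.0774 and 0.108 FPKM in STG and 1.07, 1.14 and 1.19 in CTG. Dgcr2, an adhesion receptor gene, stood at 21, 22.6 and 22.2 FPKM in STG and 16.3, 15.5 and 13.9 in CTG (-0.50 ± 0.07, adjusted p = 0.428). Of its transcripts, only Dgcr2-204 had a lower mean in CTG. It stood at 19.7, 21.2 and 21.2 FPKM in STG and 9.43, 9.66 and 0.412 in CTG. Dgcr2-202 was listed at 7.54 FPKM in CTG replicate 3 and at 0 in the other ganglion libraries.

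Apbb2, an adaptor that binds the amyloid precursor protein, stood at 25.8, 26.4 and 27.6 FPKM in STG and 12, 13.1 and 17.5 in CTG (log2 difference -0.88 ± 0.13). Further lower genes of the rule were Sh2d4b, Gm12355, Zfp950, Pcdh19, Cyp4f17, Platr25, Tjap1, Mamstr, March8 and Tbxa2r, with limma adjusted p of 0.461 to 0.801. Tbxa2r, the thromboxane receptor, stood at 5.45, 4.89 and 5.18 FPKM in STG and 2.69, 3.40 and 3.56 in CTG. Pcdh19, a neuronal protocadherin, stood at 4.13, 3.64 and 3.99 FPKM in STG and 2.07, 1.999 and 2.57 in CTG. The groups did not overlap for any of these genes, which the rule for naming them required.

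**Figure D2:**
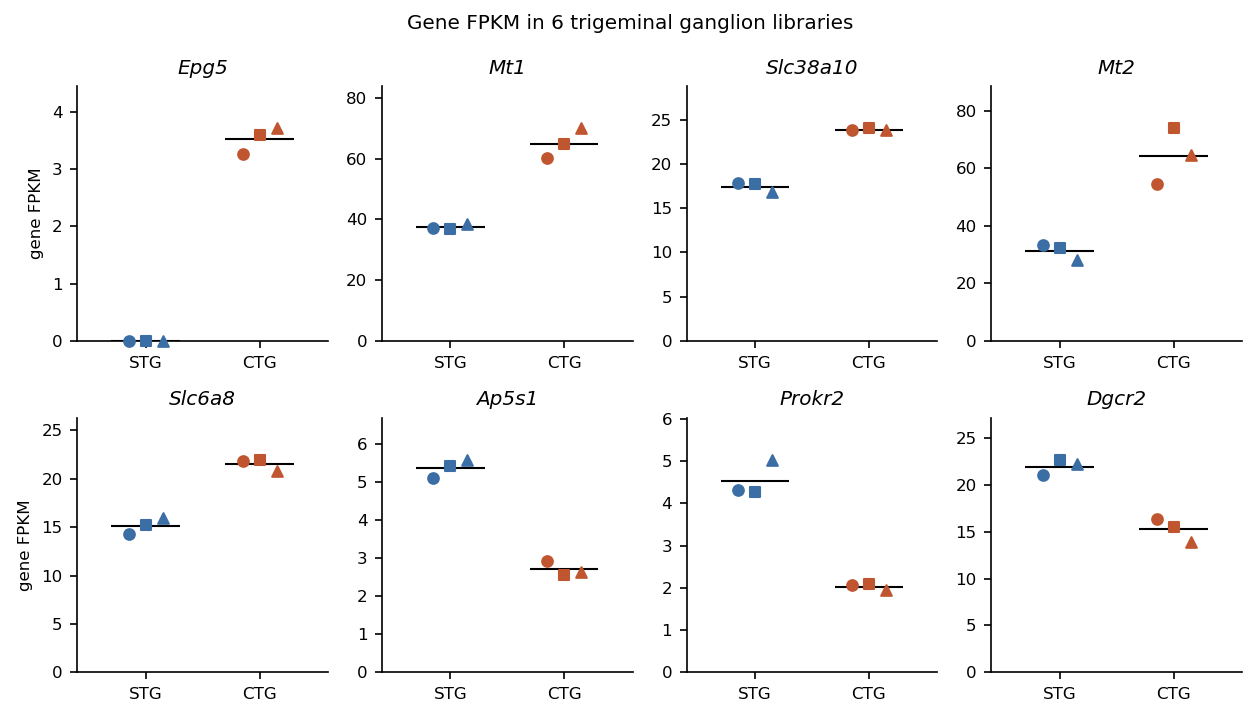
FPKM of 8 genes (vertical axes from 0) in the STG (blue) and CTG (orange) libraries; circles, squares and triangles are replicates 1, 2 and 3 and the line is the group mean. Epg5 is listed at 0 in STG and at 3.27 to 3.71 in CTG, and the other 7 genes are separate between groups but did not pass.

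The authors deposited values per transcript, and many genes have several, so transcripts were also compared singly. Of 19560 transcripts tested in the same way, 12 passed (0.0613%), 8 higher in CTG (0.0409%) and 4 lower (0.0204%), and 865 had an unadjusted p under 0.05. The 12 belonged to 9 genes, and the totals of 8 of these genes did not pass (limma adjusted p of 0.207 to 0.960). In 8 of the 12, the transcript was under 1 FPKM in every library of one group. Names and structures are those of GENCODE release M21, matched by transcript identifier.

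Lamtor5 encodes a subunit of the Ragulator complex, which anchors the growth regulator mTORC1 to lysosomes. Its transcript Lamtor5-202 stood at 0.398, 0.224 and 0.578 FPKM in STG and 28.0, 29.3 and 33.5 in CTG (log2 difference 4.49 ± 0.13, limma adjusted p = 0.00154). Lamtor5-201 stood at 27.7, 22.6 and 27.1 FPKM in STG and 4.72, 2.08 and 2.23 in CTG (-2.80 ± 0.26, adjusted p = 0.0678). Lamtor5-201 therefore held 97.9% to 99.0% of the gene's FPKM in STG and 6.23% to 14.4% in CTG. The annotated coding length is 435 bases in Lamtor5-201 and 273 bases in Lamtor5-202. The gene total, 28.1, 22.8 and 27.7 FPKM in STG and 32.8, 31.4 and 35.7 in CTG, did not pass (adjusted p = 0.960).

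Aldh3a2 encodes fatty aldehyde dehydrogenase, which oxidises long-chain fatty aldehydes, and alternative last exons are known to place it in the endoplasmic reticulum or in peroxisomes. Aldh3a2-203 stood at 0.787, 0.470 and 0.476 FPKM in STG and 10.1, 8.80 and 11.1 in CTG (log2 difference 2.80 ± 0.14, limma adjusted p = 0.00822). Aldh3a2-202 stood at 16.1, 16.3 and 15.2 FPKM in STG and 8.97, 8.77 and 7.92 in CTG (-0.82 ± 0.07, adjusted p = 0.0481). The gene total, which did not pass, was 21 to 21.2 FPKM in STG and 23 to 24.2 in CTG. The 2 transcripts end in different coding exons, shown here as the last 30 coding bases before the stop codon, 5′ to 3′, with the bases of the terminal exon in capitals (GRCm38 chromosome 11, minus strand, 61246313 to 61246321 in Aldh3a2-202 and 61248465 to 61248482 in Aldh3a2-203).
Aldh3a2-202: gttgcagctgtgattgtcaagGATCAGCTG
Aldh3a2-203: gtgattgtcaagTTTGTTCTGGAACGTGCG

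Myo6 encodes myosin VI, the motor that walks toward the minus end of actin filaments and carries endocytic cargo. Myo6-203 stood at 0.0393, 0.0690 and 0.0372 FPKM in STG and 6.74, 6.94 and 5.01 in CTG (log2 difference 2.77 ± 0.15, limma adjusted p = 0.0107). Myo6-202 stood at 4.61, 5.34 and 3.72 FPKM in STG and was listed at 0 in all 3 CTG libraries (adjusted p = 0.0183). The gene total was 6.71 to 7.70 FPKM in STG and 6.14 to 9.38 in CTG. Myo6-202 holds a coding exon of 39 bases (chr9:80296643-80296681, plus strand, GRCm38) that Myo6-203 lacks, shown with 12 bases on each side and the exon in capitals, above the junction without it.
Myo6-202: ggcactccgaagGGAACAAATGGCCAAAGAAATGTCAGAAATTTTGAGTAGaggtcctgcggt
Myo6-203: ggcactccgaagaggtcctgcggt

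In Slc6a8 the gene total was separate between the groups too, as given above. Slc6a8-203 stood at 6.55, 6.39 and 6.38 FPKM in STG and 15.1, 15.5 and 15.9 in CTG (log2 difference 1.15 ± 0.05, limma adjusted p = 0.00705), above 1 FPKM in every library. Slc6a8-210 stood at 3.50, 4.07 and 4.87 FPKM in STG and was listed at 0 in CTG (adjusted p = 0.0183). Slc6a8-201, with 3.19, 3.70 and 2.99 FPKM in STG and 4.98, 5.02 and 3.53 in CTG, did not pass. Among other differences, Slc6a8-203 carries 9 bases at an exon end (chrX:73680048-73680056, plus strand, GRCm38) that Slc6a8-210 lacks, in capitals here with 15 bases on each side.
Slc6a8-203: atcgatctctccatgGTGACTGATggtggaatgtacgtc
Slc6a8-210: atcgatctctccatgggtggaatgtacgtc

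In 3 genes the transcripts furthest above and below 0 in their CTG minus STG difference carry the same coding sequence and differ outside it. Snx25, a sorting nexin, had Snx25-207 at 0.00296, 0.00530 and 0.00155 FPKM in STG and 5.88, 5.48 and 6.76 in CTG (limma adjusted p = 0.00705), and Snx25-201 at 3.02, 2.80 and 6.14 in STG and at most 0.0270 in CTG. Zfand2a, an arsenite-inducible regulator of the proteasome, had Zfand2a-201 at 1.24, 1.15 and 0.769 FPKM in STG and 6.31, 7.48 and 7.34 in CTG (adjusted p = 0.0223). Zfand2a-202, at 13.4, 13.6 and 12.1 FPKM in STG and 7.92, 8.18 and 7.05 in CTG, did not pass (adjusted p = 0.140) and still held 49.0% to 55.6% of the gene in CTG. Slc25a22, a mitochondrial glutamate carrier, had Slc25a22-203 at 15.9, 21.3 and 19.6 FPKM in STG and 4.52, 5.29 and 4.72 in CTG (adjusted p = 0.0223). None of these 3 gene totals passed, and that of Slc25a22 was 21.1 to 22.7 FPKM in STG and 19.3 to 21.9 in CTG. The last transcript to pass was Atp9a-204, of a phospholipid flippase gene, listed at 0 in STG and at 52.6, 24.9 and 20.2 FPKM in CTG (adjusted p = 0.0281). Other Atp9a transcripts also varied within groups, Atp9a-201 from 9.64 to 71.5 FPKM in STG, while the gene total was 101 to 103 FPKM in STG and 102 to 113 in CTG.

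**Figure D3:**
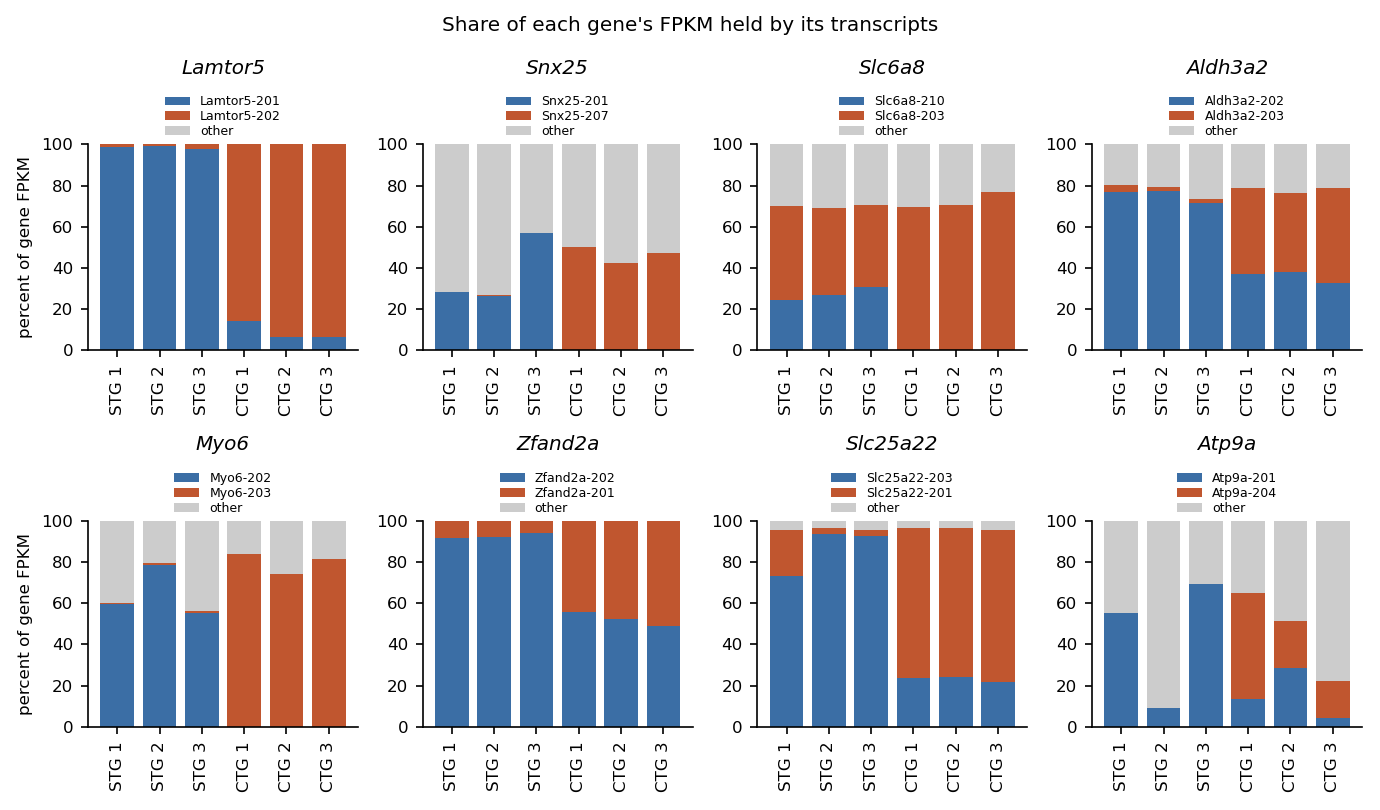
Percent of a gene's FPKM (vertical axes, 0 to 100) held by a transcript lower in CTG (blue), a transcript higher in CTG (orange) and all other transcripts (grey) in each library, for the 8 genes with several transcripts of which 1 or more passed. Lamtor5-201 holds at least 97.9% of its gene in STG and at most 14.4% in CTG, and Atp9a shares vary within both groups.

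A different leading transcript was also common between libraries that share a letter. Of 4345 genes with at least 2 transcripts measured, 2747 (63.2%) had the same leading transcript in all 6 libraries. The leading transcript differed among the 3 STG libraries in 1140 genes (26.2%) and among the 3 CTG libraries in 1121 genes (25.8%). It was the same within each group and different between the groups in 25 genes (0.575%), which include Lamtor5, Aldh3a2, Myo6 and Slc25a22. In the Sp5C libraries, some of the transcripts that passed switched within a letter. Lamtor5-202 stood at 23.4, 31.8 and 0.369 FPKM in SSp5C replicates 1 to 3 and 35.4, 29.1 and 34 in CSp5C. Aldh3a2-203 stood at 0.288, 9.61 and 0.320 FPKM in SSp5C and 0.474, 0.462 and 7.25 in CSp5C. Snx25-207 stood at 4.98 to 6.75 FPKM in SSp5C, above its STG values, and at 5.20, 5.56 and 0.00893 in CSp5C. Myo6-203 did not switch there, at 0.0494 to 0.289 FPKM over all Sp5C libraries. How far these differences reflect the estimation of transcript levels was not tested. With the spread taken from all 12 libraries, 1 of the 12 transcripts passed, Myo6-203 (adjusted p = 9.78e-05). Without each library in turn, 14 to 31 transcripts passed, of which 4 to 9 were among the 12. Lamtor5-202, Snx25-207, Slc6a8-203 and Aldh3a2-203 passed in all 6 of these fits and Myo6-203 in 5. Epg5-201, Zfand2a-201 and Slc6a8-210 passed in 3, Myo6-202 and Atp9a-204 in 2, Slc25a22-203 in 1 and Aldh3a2-202 in 0.

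Of 28 pathway lists, genes known to respond to glucocorticoids had the highest median difference. Of 25 tested, 22 had a higher and 3 a lower mean in CTG, with a median log2 difference of 0.28 against -0.01 for all genes. None passed limma's test after adjustment. In 10 of the 25, every CTG library was above every STG library, and in 0 every CTG library was below, where the shares over all genes were 4.47% and 6.32%. The list was written with earlier results of these data known and holds Mt1, Mt2 and Cdkn1a, named above. These counts are therefore only a description. The median was 0.24 to 0.33 when each library was left out in turn, 0.29 of these without CTG replicate 1, and 0.40 without CTG replicate 1 and STG replicate 1 together.

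Members of this list span several roles. Cdkn1a, the cell cycle inhibitor p21, stood at 33.5, 37.7 and 40.1 FPKM in STG and 43.8, 52.7 and 50.9 in CTG (log2 difference 0.40 ± 0.10). Sult1a1, a sulfotransferase, stood at 27.3, 27.2 and 25.1 FPKM in STG and 30.8, 34.4 and 30.9 in CTG. Tsc22d3, the glucocorticoid-induced leucine zipper, stood at 73.7, 65.2 and 75.9 FPKM in STG and 70.7, 114 and 98.2 in CTG, and CTG replicate 1 overlapped with STG. Mt1 and Mt2, described above, belong to this list too.

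The other members with separate groups are named after their values were seen. Fkbp5, a cochaperone that dampens glucocorticoid receptor signalling, stood at 11.5, 10.9 and 10.3 FPKM in STG and 13.4, 16.6 and 13.3 in CTG. Nfkbia, the inhibitor of NF-kB, stood at 15.9, 12 and 16.9 FPKM in STG and 20.6, 21.4 and 19.9 in CTG. Ddit4, an inhibitor of mTORC1, stood at 28.2, 29.3 and 33.6 FPKM in STG and 35.1, 47.9 and 43.8 in CTG. Pdk4, which restrains pyruvate oxidation, Cdo1, which degrades cysteine, and the kinase gene Sgk1 were the remaining ones, with log2 differences of 0.45, 0.34 and 0.28. CTG replicate 2 had the highest value of the 6 libraries for Cdkn1a, Sult1a1, Fkbp5, Nfkbia, Ddit4, Pdk4, Sgk1 and Tsc22d3.

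Genes of the receptor itself and of other known targets were close between groups. Nr3c1, the glucocorticoid receptor, stood at 22.1, 20.4 and 14.8 FPKM in STG and 21, 18.3 and 16.2 in CTG. Per1, a clock gene that glucocorticoids induce, stood at 17.2, 9.89 and 11.9 FPKM in STG and 14.6, 12 and 10.1 in CTG. Dusp1, a phosphatase that switches off MAP kinases, stood at 8.61, 6.74 and 8.07 FPKM in STG and 8.85, 7.92 and 8.55 in CTG. Lcn2, a lipocalin that neutrophils also make, had the highest log2 difference of the list (2.33), with 53.8 FPKM in CTG replicate 1, 14 in replicate 3 and 0.852 to 2.11 in the other 4 libraries.

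**Figure D4:**
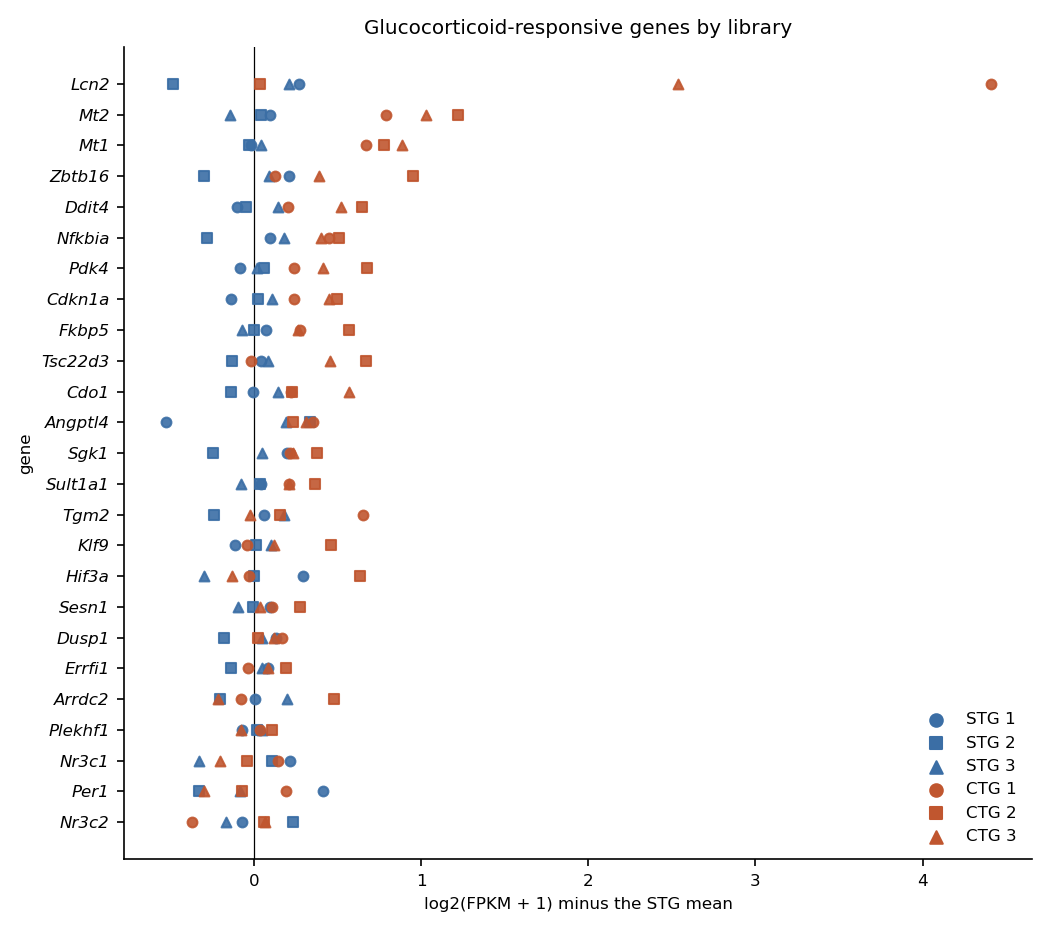
The 25 glucocorticoid-responsive genes tested (rows) with the log2(FPKM + 1) of each library minus the STG mean of that gene (horizontal axis); blue is STG, orange is CTG, and circles, squares and triangles are replicates 1, 2 and 3. In 10 genes all orange points lie to the right of all blue points, and Lcn2 is far to the right in CTG replicates 1 and 3 only.

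Most other zinc and metal genes had small differences. Over 21 genes for metallothioneins and zinc transport, 12 had a higher and 9 a lower mean in CTG, and the median was 0.02. Mt3, the neural metallothionein, stood at 89.5, 89.2 and 92.0 FPKM in STG and 91.3, 103 and 127 in CTG, so that one CTG library lay within the STG range. Slc39a8, a zinc importer, stood at 5.17, 4.66 and 4.77 FPKM in STG and 8.08, 6.71 and 5.98 in CTG. Mtf1, the metal-sensing transcription factor that drives Mt1 and Mt2, stood at 3.99, 3.63 and 3.43 FPKM in STG and 3.55, 3.48 and 3.24 in CTG.

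Mt1 and Mt2 are neighbours on chromosome 8 and their promoters are shown because both genes had separate groups. The windows run from 250 bases before to 50 bases after the start in RefSeq (GRCm38.p6, plus strand, chr8:94178839-94179138 for Mt1 and chr8:94172368-94172667 for Mt2), and capitals mark the core of the metal response element, TGCACNC or TGCGCNC on either strand.
Mt1: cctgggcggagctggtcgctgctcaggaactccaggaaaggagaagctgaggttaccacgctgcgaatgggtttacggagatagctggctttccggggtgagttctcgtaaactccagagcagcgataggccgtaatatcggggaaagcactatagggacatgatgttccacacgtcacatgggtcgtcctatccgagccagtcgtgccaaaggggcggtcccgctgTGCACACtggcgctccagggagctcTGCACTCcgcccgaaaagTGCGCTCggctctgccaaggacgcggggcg
Mt2: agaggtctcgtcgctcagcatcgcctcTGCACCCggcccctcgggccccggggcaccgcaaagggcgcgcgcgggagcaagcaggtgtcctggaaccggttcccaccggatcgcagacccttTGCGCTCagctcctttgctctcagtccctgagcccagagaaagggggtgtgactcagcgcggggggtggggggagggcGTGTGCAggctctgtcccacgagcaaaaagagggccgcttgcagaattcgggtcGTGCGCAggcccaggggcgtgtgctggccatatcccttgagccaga
The Mt1 window holds 3 cores and the Mt2 window 4. Of 32851 mouse promoters of the same length, 25.7% held 1 or more cores and 0.517% held 4 or more. The perfect palindrome of the glucocorticoid response element was in neither window and in 0.00913% of promoters. A match is only a description of the letters, and no match says only that these letters are not in this window.

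Markers of neutrophils and marrow varied widely between libraries. Of 17 neutrophil and bone marrow genes, 13 reached the level needed for testing and none passed. As 7 of the 13 had a mean under 1 FPKM in STG and were tested only through their CTG values, their shared direction is no result. Mpo, myeloperoxidase of neutrophil granules, stood at 0.267, 0.108 and 0.508 FPKM in STG and 24.7, 1.28 and 4.43 in CTG. S100a9, a subunit of calprotectin, stood at 7.04, 1.08 and 8.26 FPKM in STG and 325, 3.68 and 114 in CTG. CTG replicate 2 was below STG replicates 1 and 3 for S100a9. None of the 10 bone and cartilage genes tested passed, and 3 of them had a mean under 1 FPKM in STG. Bglap, osteocalcin of bone-forming cells, stood at 1.51, 1.51 and 2.46 FPKM in STG and 64.1, 8.44 and 2.60 in CTG. The part that bone or marrow tissue plays in any other difference was not tested.

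Macrophage markers lay on both sides, with 7 of 16 higher, 9 lower and a median of -0.02. Cx3cr1, the fractalkine receptor of resident macrophages, stood at 6.07, 5.22 and 1.54 FPKM in STG and 0.966, 0.985 and 0.615 in CTG, a log2 difference of -1.38 that did not pass. Its groups did not overlap, although STG replicate 3 was close to CTG. Csf1r, the receptor on which macrophages depend, stood at 11.6, 8.88 and 12 FPKM in STG and 11.4, 11.0 and 8.44 in CTG. C1qa, a complement component made by macrophages, stood at 28.8, 19.3 and 26.4 FPKM in STG and 28.1, 27.3 and 17.0 in CTG.

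Cytokines and their receptors were likewise near the level of all genes. Of 28 tested, 13 had a higher and 15 a lower mean in CTG, the median was -0.01 and none passed. C3, the central complement protein, which stands in the acute phase list, was 2.54, 2.005 and 2.71 FPKM in STG and 19.5, 5.07 and 4.28 in CTG. In that list 15 of 18 genes had a higher mean in CTG, 4 with every CTG library above STG (4.47% over all genes), and none passed. The median was 0.16, but 0.06 without CTG replicate 1 and 0.25 without CTG replicate 3, and 3 of the 18 had a mean under 1 FPKM in STG. S100a10, an annexin partner that brings channels to the membrane of sensory neurons, stood at 203, 208 and 199 FPKM in STG and 217, 231 and 246 in CTG.

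Extracellular matrix genes had the lowest median of the pathway lists, -0.19 over 34 genes, with 26 lower and 8 higher in CTG and none passed. Nid1, nidogen of basement membranes, stood at 49.7, 43.6 and 51.7 FPKM in STG and 38.3, 34.7 and 37.8 in CTG (log2 difference -0.38). Col4a2, a chain of basement membrane collagen, stood at 46.3, 41.4 and 42.3 FPKM in STG and 41.2, 35.2 and 33.6 in CTG. These and Col6a3 were the 3 members whose CTG libraries were all below STG (6.32% over all genes), and another 3, Mmp9, Timp1 and Tnc, had all CTG libraries above STG (4.47% over all genes). The matrix protease Mmp9 stood at 0.520, 0.141 and 0.80 FPKM in STG and 9.03, 1.47 and 2.61 in CTG, and it is also a marker in the neutrophil list. Without CTG replicate 3 or without STG replicate 3 the median of the list was -0.06.

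Genes of the folding stress response of the endoplasmic reticulum had a median of 0.12, with 21 of 23 higher in CTG, 5 with every CTG library above STG (4.47% over all genes) and none passed. Herpud1, which helps to degrade misfolded proteins, stood at 19.0, 17.0 and 16.7 FPKM in STG and 22.6, 21.1 and 20.1 in CTG. Hspa5, the main chaperone of this compartment, stood at 87.1, 80.2 and 85.2 FPKM in STG and 102, 90.1 and 92.5 in CTG. Xbp1, a transcription factor that plasma cells also need, was 47.7 FPKM in CTG replicate 1 and 23.2 to 25.7 in the other 5 libraries. Without CTG replicate 1 the median was 0.01. Jchain, an antibody chain of plasma cells, was 294 FPKM in CTG replicate 1 and 6.18 to 34.8 elsewhere, and its part in the result was not tested.

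**Figure D5:**
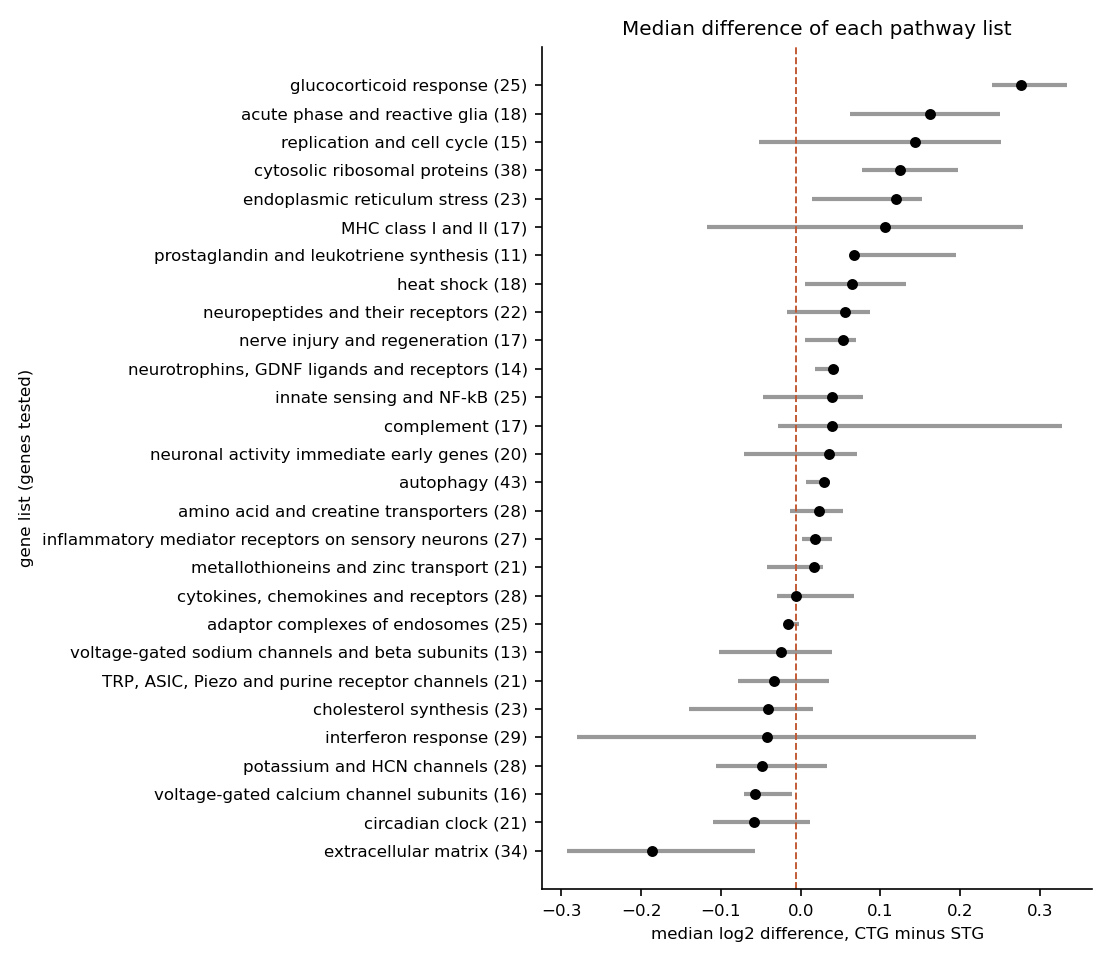
Median log2 difference, CTG minus STG (horizontal axis), of 28 pathway lists with the number of genes tested in brackets; the grey bar spans the medians with each of the 6 libraries left out and the dashed line is the median of all genes, -0.01. Glucocorticoid-responsive genes lie highest at 0.28 (0.24 to 0.33) and extracellular matrix genes lowest at -0.19.

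The channels and peptides that define pain-sensing neurons had small differences, and none passed. Calca, the precursor of calcitonin gene-related peptide, stood at 300.2, 313 and 291 FPKM in STG and 370.1, 368 and 296 in CTG, and CTG replicate 3 overlapped with STG. Calcb, its paralogue, stood at 24.8, 26.2 and 23.7 FPKM in STG and 28.9, 28.3 and 26.5 in CTG and its groups did not overlap, the sole such case among the 9 peptidergic nociceptor genes tested, where the share over all genes was 10.8%. Tac1, the precursor of substance P, stood at 132, 150.2 and 109 FPKM in STG and 132.5, 146 and 130.3 in CTG. The 9 genes had a median of 0.13, with 8 higher in CTG.

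Receptor channels were close to the level of all genes. Over 21 TRP, ASIC, Piezo and purine receptor channels, 8 had a higher and 13 a lower mean in CTG, and the median was -0.03. Trpa1, the irritant receptor, stood at 17.3, 14.2 and 13.6 FPKM in STG and 17.4, 18.2 and 16.6 in CTG. Trpv1, the heat and capsaicin receptor, stood at 10.3, 12 and 11.5 FPKM in STG and 10.8, 14.3 and 12.3 in CTG. P2rx3, an ATP-gated channel, stood at 53.9, 44.4 and 45.5 FPKM in STG and 50.9, 53.1 and 58.1 in CTG. The groups overlapped for all 3, each of which had a higher mean in CTG. Of the 21, 1 had every CTG library below every STG library (6.32% over all genes). In 0 of them was every CTG library above (4.47% over all genes).

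Among voltage-gated channels, sodium channels had a median of -0.02 over 13 genes, with 3 higher and 10 lower in CTG. Their log2 differences ran from -0.47 to 0.11, and the groups of none were separate. Scn10a, the nociceptor channel Nav1.8, stood at 108, 116 and 105 FPKM in STG and 122, 124 and 109 in CTG. Potassium and HCN channels had a median of -0.05 over 28 genes, with 9 higher and 19 lower. Kcnn2, a calcium-activated potassium channel, stood at 4.18, 3.44 and 2.96 FPKM in STG and 4.68, 5.49 and 5.29 in CTG (log2 difference 0.45). Kcna4, a channel of rapidly inactivating current, stood at 7.58, 8.07 and 7.32 FPKM in STG and 5.55, 7.18 and 5.89 in CTG (-0.27). The groups of 4 of the 28 did not overlap (10.8% over all genes), Kcnn2 on the higher side and Kcna4, Kcnma1 and Kcnc1 on the lower, and none passed.

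Of 14 trophic factor genes tested, 8 had a higher and 6 a lower mean in CTG, and the median was 0.04. The unadjusted limma p was under 0.05 for 2 of the 14, and for 606 of all 12906 genes tested. Gfra1, the receptor for glial cell line-derived neurotrophic factor, stood at 42.3, 40.6 and 39.3 FPKM in STG and 28.2, 34.4 and 36.0 in CTG (log2 difference -0.31). Cntf, ciliary neurotrophic factor of Schwann cells, stood at 29.9, 33.3 and 26.2 FPKM in STG and 33.0, 44.7 and 41.0 in CTG (0.39), with an overlap in 1 library. Neither passed. Immediate early genes of neuronal activity (20 tested, median 0.04), nerve injury genes (17 tested, median 0.05) and interferon-response genes (29 tested, median -0.04) had no member with separate groups, where the share over all genes was 10.8%. Jun, which neurons induce after axon injury, stood at 31.9, 34.6 and 33.9 FPKM in STG and 36.2, 33.4 and 34.8 in CTG.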

How the data were processed

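RNA of mouse trigeminal ganglia was sequenced after ribosomal RNA removal with a directional library kit, per the labels' protocols. The authors deposited FPKM per protein-coding transcript. The submitters' processing notes name HISAT2 (version not given), StringTie 1.3.1 and Cuffdiff 2.1.1; build and annotation were not given in the sources used here.

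In all, 57109 transcript rows were summed per gene identifier (21981 genes), and genes with a mean of at least 1 FPKM over the 6 libraries were tested on log2(FPKM + 1) with limma 3.58.1 in R 4.3.3 (mean-dependent prior, robust moderation, two-sided, Benjamini-Hochberg, threshold 0.05). Transcripts were tested alike. Fold changes on this scale understate the change of low genes. The method was tested on simulated data. Depth came from the step between low FPKM values of 1-transcript genes, using GENCODE M21 lengths (99.7% of transcripts matched). Since 36.5% to 42.6% of low values were whole fragments (within 0.05, against 10% by chance), fragment numbers are estimates and no count test was used.

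Libraries were grouped by title. Named genes are the 15 smallest p in each direction with groups that do not overlap, from each list at most 4 by p and at most 4 by mean FPKM, and the 5 genes that deviate most in each library. Of these genes, 1 is not reported here. Transcripts that passed are named as such. Other members were named after their values were seen where the text says so or to show a role. The comparison and its 50 lists (22 of markers, 28 of pathways) were chosen with earlier results of these data known. Alternatives changed the pseudocount, filter, scaling, moderation, libraries and replicate block. Limma-voom, the removal of genes at 0 in any library, the joint removal of CTG and STG replicate 1 and all transcript settings were chosen after seeing the data. The long non-coding RNA values were not used here.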

Additional observations from a re-analysis of the deposited data

How the results depend on the processing

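Of the 12906 genes tested, the number past the threshold was 1 and stayed at 1 with a pseudocount of 0.1 or 0.5, no filter, median-ratio scaling, TPM rescaling, no trend, no robust moderation and limma-voom. It was 2 with quantile normalization (Epg5 and Mt1) and 5 without CTG replicate 1 and STG replicate 1 together. Limma called 0 genes with a minimum mean of 5 FPKM (423 at an unadjusted p under 0.05), with all 12 libraries (814), without genes listed at 0 in a whole group (606) and without genes listed at 0 in any library (612), the last 2 of which leave out Epg5. Leaving out 1 library gave 0 to 7 genes, with 7 when CTG replicate 1 was absent, 3 when STG replicate 2 was absent and 0 when CTG replicate 2 or 3 was absent. Tested by transcript, 12 passed. That number was 6 with all 12 libraries, 3 at a minimum of 5 FPKM, 7 with a pseudocount of 0.1, 19 without the trend, and 14 to 31 with 1 library left out (31, 30 and 29 without CTG replicate 1, CTG replicate 3 and STG replicate 1). With 1 library left out, 4 to 9 of the 12 transcripts were among those that passed. With the replicate block, 0 genes (716 at an unadjusted p under 0.05) and 0 transcripts passed, and the adjusted p of Epg5 was 0.237. Same-numbered libraries correlated at 0.0906, 0.186 and -0.147 in their deviations, and CTG replicates 1 and 3 correlated more with another number (0.154 and 0.13), so the numbers were not taken as pairs. The cause of these moves was not tested. No direction of the 30 named genes reversed. As the rule for naming them required groups that do not overlap, leaving out a library or changing the pseudocount could not reverse one. Of the list medians recomputed, 28 moved by more than their spread between libraries, against 978 that did not. Fragments are only estimated, which limits what can be said of an exact 0.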

Other observations

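Rpl34, a ribosomal protein gene, was listed at 47.6 FPKM in CTG replicate 2 and at 3.28 to 3.78 FPKM in the other 5 libraries. Bpifb1, an airway secretory protein gene, and Lipf, a gastric lipase gene, were at 135 and 73.4 FPKM in STG replicate 1 and at most 1.29 and 0.424 FPKM elsewhere. Prg2, the major basic protein of eosinophils, was at 27.6 FPKM in CTG replicate 3 and 0.105 to 3.96 FPKM elsewhere. In 7 genes, 1 ganglion library was listed at 0 while the other 5 held at least 1 FPKM. They are Trmt2a in CTG replicate 1, Wdyhv1 in CTG replicate 2, Slc30a4 in CTG replicate 3, Gm14308 and Dgcr6 in STG replicate 1, and Zfp973 and Pramef8 in STG replicate 2. Slc30a4, a zinc exporter, was at 2.41 to 3.13 FPKM in the other 5 libraries. Rims1, a scaffold of the presynaptic release site, had the value 0 in the whole STG group and CTG replicate 1, against 8.45 and 7.61 FPKM in CTG replicates 2 and 3. Tango2 was at 12.7 and 16.5 FPKM in STG replicates 1 and 3 and listed at 0 in the other 4. Male germ cell markers summed to 8.08 to 9.51 FPKM in 4 of the 6 libraries, to 0.0285 in CTG replicate 3 and to 0 in STG replicate 1.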
